A study of Homo sapiens with 2 samples.

Results

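The 10 immediate early genes FOS, FOSB, JUN, JUNB, EGR1, IER2, IER3, ATF3, DUSP1 and ZFP36 were followed through single-cell transcriptomes of 2 Ewing sarcoma cell lines, CHLA9 and TC71. The members were taken by name from a list of genes, and each of the 10 was found among the 33538 genes counted. Both are established lines, with 1 droplet library of each (10x Genomics, 3′ counting), with no treatment named. CHLA9 was grown in IMDM with insulin, transferrin and selenite and a higher share of fetal bovine serum, TC71 in RPMI with less serum, and both were lifted with trypsin and washed in the cold before capture. CHLA9 was sequenced on 2 instruments and TC71 on 1. Line, medium, serum and sequencing therefore cannot be told apart, which bears on these genes because serum and handling are known to induce them.

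Cells were kept with at least 5000 unique molecular identifiers (UMIs), at least 2000 genes and at most 15% of UMIs from the 13 mitochondrial genes. CHLA9 gave 4524 kept cells of 5077 barcodes, with a median of 34656 UMIs, and TC71 gave 1729 of 8468, with a median of 33370. In all, 174975302 UMIs of CHLA9 cells and 58355173 of TC71 cells were used. Of the barcodes, 16 were found in both libraries, and 3 of these among the kept cells of both. The 7 Ewing sarcoma markers were read in both lines, CD99 at 1141 and 402 CPM (UMIs on the counts-per-million scale) and NKX2-2 at 9.89 and 34.6. The 5 blood and 3 endothelial markers were each under 1 CPM in both lines, and PTPRC, which defines blood cells, was at 0.051 in CHLA9 and 0.086 in TC71. The 7 fibroblast markers summed to 324 CPM in CHLA9 and 28.6 in TC71, and the 4 epithelial markers to 126 and 306. Since each line has a single library and its cells cannot stand in for replicates, no p-value is given. Intervals are exact 95% Poisson, binomial or conditional binomial intervals and cover counting error only.

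Immediate early genes are transcribed within minutes of a stimulus, from promoters that are already primed, without the need for new protein. Growth factors act on them largely through the ERK kinases and serum response factor, cyclic AMP through CREB, stress through the JNK and p38 kinases and ATF4, and inflammatory signals through NF-kB. FOS, FOSB, JUN and JUNB encode subunits of the dimeric factor AP-1, EGR1 a zinc finger factor, and ATF3 a stress-induced relative of the AP-1 subunits. DUSP1 removes phosphate from MAP kinases, ZFP36 (tristetraprolin) speeds the decay of messages with AU-rich ends, and IER2 and IER3 encode short-lived proteins of the early response. In Ewing sarcoma the driver is the fusion EWSR1-FLI1, whose ETS part binds DNA together with AP-1 at many sites.

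RefSeq promoter windows on GRCh38.p14 were held for 9 of the 10 members, with 10 windows because a pair of ATF3 starts was held. Any other starts of the members were not searched. IER3 had no entry. The 250 bases before the start were searched on both strands, and the same search was run over 35116 windows of all genes. The CArG box, bound by serum response factor, was in 1 of the 9 members (EGR1) and in 1.16% of all windows. TGACG, the core of the cyclic AMP response element, was in 7 of 9 members and 21.2% of all windows. Its palindrome TGACGTCA, which contains that core, was in 1 member (DUSP1) and in 1.65% of all windows. TATAAA was in 5 of 9 members and 10.7% of all windows, TGATGNAA, a form of the ATF4 site, in 1 (ATF3) and 3.14%, and GGGCGG in 7 and 42.6%. The TATAAA of ATF3 began 230 bases before the later of the starts held, and those of FOS, FOSB, JUNB and DUSP1 30 to 33 bases before theirs. A member was counted when any of its windows matched, while the share is per window, so ATF3 had a pair of windows to match in. The AP-1 site in the form TGANTCA and the NF-kB site were in none of the 9 and in 6.57% and 6.88% of all windows. Longer forms of the AP-1 site were not searched, so this count does not cover them. Sites of any motif, the CArG box among them, that lie more than 250 bases before a start are not covered either. A match is a stretch of letters and no proof of binding. Windows are shown for the members that carry the cell-to-cell patterns described later, 5′ to 3′ on the strand of the gene, with every motif named above except GGGCGG in capitals.
EGR1, chr5:138465229-138465478, plus strand: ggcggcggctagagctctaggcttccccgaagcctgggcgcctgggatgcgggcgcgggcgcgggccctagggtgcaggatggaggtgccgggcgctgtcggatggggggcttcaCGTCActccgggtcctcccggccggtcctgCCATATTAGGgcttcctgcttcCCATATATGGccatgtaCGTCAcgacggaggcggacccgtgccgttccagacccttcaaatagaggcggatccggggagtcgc
JUNB, chr19:12791236-12791485, plus strand: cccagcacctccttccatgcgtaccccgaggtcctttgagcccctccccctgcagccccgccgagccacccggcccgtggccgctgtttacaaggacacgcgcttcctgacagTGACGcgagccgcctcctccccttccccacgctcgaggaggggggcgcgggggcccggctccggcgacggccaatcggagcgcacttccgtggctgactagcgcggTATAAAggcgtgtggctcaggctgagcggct
JUN, chr1:58784048-58784297, minus strand: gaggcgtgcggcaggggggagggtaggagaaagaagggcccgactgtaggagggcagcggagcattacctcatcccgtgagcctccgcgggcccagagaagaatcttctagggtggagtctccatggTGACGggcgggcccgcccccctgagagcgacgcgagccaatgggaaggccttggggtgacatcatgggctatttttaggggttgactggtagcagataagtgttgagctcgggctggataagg
IER2, chr19:13150161-13150410, plus strand: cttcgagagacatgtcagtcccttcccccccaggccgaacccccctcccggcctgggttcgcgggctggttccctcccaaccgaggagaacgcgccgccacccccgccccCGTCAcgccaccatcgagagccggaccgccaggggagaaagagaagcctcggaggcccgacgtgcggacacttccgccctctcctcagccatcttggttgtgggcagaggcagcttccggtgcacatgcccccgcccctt
ATF3, chr1:212565157-212565406, plus strand: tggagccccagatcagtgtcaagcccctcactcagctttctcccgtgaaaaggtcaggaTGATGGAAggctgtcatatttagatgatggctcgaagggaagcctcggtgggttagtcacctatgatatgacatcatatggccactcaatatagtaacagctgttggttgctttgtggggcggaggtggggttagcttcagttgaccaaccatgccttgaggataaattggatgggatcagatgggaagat
DUSP1, chr5:172771196-172771445, minus strand: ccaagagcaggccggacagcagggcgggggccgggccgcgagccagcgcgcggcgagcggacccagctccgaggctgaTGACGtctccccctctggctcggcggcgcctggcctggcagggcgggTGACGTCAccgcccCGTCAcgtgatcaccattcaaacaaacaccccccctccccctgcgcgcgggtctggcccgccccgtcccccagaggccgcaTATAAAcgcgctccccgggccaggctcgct

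In the EGR1 window the 2 CArG boxes began 105 and 83 bases before the start and lay between 2 copies of TGACG. In JUNB, TGACG began 137 bases and TATAAA 31 bases before the start. JUN held TGACG at 123 bases and IER2 at 140 bases, and neither had TATAAA. The JUN and ATF3 windows shown also hold TGACATCA, longer by a base than the AP-1 form searched and left in lower case. The ATF4 form in ATF3 began 191 bases before the first of the starts held, and DUSP1 held TGACGTCA at 125 bases and TATAAA at 30 bases.

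Summed over the kept cells, the members made up 164 CPM (163 to 166) in CHLA9 and 195 (191 to 199) in TC71, and 4 of them, JUN, JUNB, IER2 and IER3, held 91.1% and 90.0% of these UMIs. The count was made at the 3′ end of each message, so levels of different genes carry no length factor. IER2 (ENSG00000160888, chr19:13150411-13154911) was the highest member in both lines, at 59.3 CPM (58.1 to 60.4) in CHLA9 and 64.9 (62.8 to 67.0) in TC71. JUN (ENSG00000177606, chr1:58776845-58784048) followed, at 47.1 CPM (46.1 to 48.2) and 41.7 (40.1 to 43.4). JUNB (ENSG00000171223, chr19:12791486-12793315) had 23.6 CPM (22.9 to 24.3) in CHLA9 and 31.7 (30.3 to 33.2) in TC71. IER3 (ENSG00000137331, chr6:30743199-30744548) had 19.9 CPM (19.3 to 20.6) and 37.3 (35.7 to 38.9), so that JUNB stood above IER3 in CHLA9 and below it in TC71. DUSP1 (ENSG00000120129, chr5:172768096-172771195) lay at 8.92 CPM in CHLA9 and 9.37 in TC71, with intervals that overlap.

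FOS, FOSB and EGR1 were scarce in both lines, and ATF3 in CHLA9. FOS (ENSG00000170345, chr14:75278826-75282230) had 291 UMIs in CHLA9, or 1.66 CPM (1.477 to 1.866), and 14 UMIs in TC71, or 0.24 CPM (0.13 to 0.40). FOSB (ENSG00000125740, chr19:45467995-45475179) had 13 and 6 UMIs. EGR1 (ENSG00000120738, chr5:138465479-138469303) had 135 UMIs in CHLA9, or 0.77 CPM (0.65 to 0.91), and 114 in TC71, or 1.95 CPM (1.61 to 2.35). ATF3 (ENSG00000162772, chr1:212565334-212620777) had 120 UMIs in CHLA9, or 0.69 CPM (0.57 to 0.82), and 335 in TC71, or 5.74 CPM (5.14 to 6.39). ZFP36 (ENSG00000128016, chr19:39406847-39409412) had 2.47 CPM and 2.06 CPM. In CHLA9 the order was IER2, JUN, JUNB, IER3, DUSP1, ZFP36, FOS, EGR1, ATF3 and FOSB, and EGR1 and ATF3 were the neighbours whose intervals overlapped. In TC71 it was IER2, JUN, IER3, JUNB, DUSP1, ATF3, ZFP36, EGR1, FOS and FOSB, with overlap between ZFP36 and EGR1 and between FOS and FOSB.

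**Figure D1:**
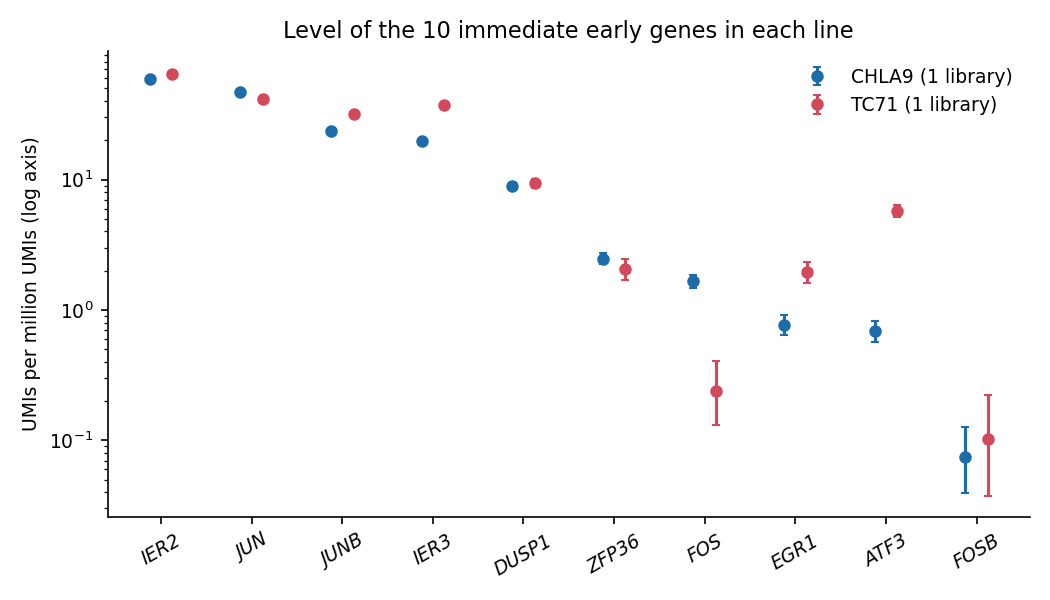
Summed CPM of each member (log axis) in CHLA9 and TC71, 1 library each, with exact 95% Poisson intervals as bars. IER2 and JUN lead in both lines, ATF3 and EGR1 sit higher in TC71, and FOS is higher in CHLA9.

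Between the lines, 9 members had at least 1 CPM in a line, and 3 of them differed by a log2 ratio of 1 or more. ATF3 was 8.37-fold higher in TC71 (log2 3.07, 2.76 to 3.38), EGR1 was 2.53-fold higher in TC71 (log2 1.34, 0.97 to 1.71), and FOS was 6.93-fold higher in CHLA9 (log2 difference of TC71 minus CHLA9 -2.79, -3.68 to -2.02). Of the 13552 genes with at least 1 CPM in a line, 13.9% were higher in TC71 by this measure and 19.7% in CHLA9, so 2 and 1 of 9 members are near the background. The median log2 difference was 0.13 over the 9 members and -0.20 over all genes. IER3 (log2 0.90, 0.83 to 0.98) fell just short and JUNB stood at 0.42. IER2 (0.13), JUN (-0.18), DUSP1 (0.07) and ZFP36 (-0.27) were closest to 0. Scaling by the median ratio of genes moved every log2 difference up by 0.15, with which IER3 passed 1 and no member changed sign.

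Other genes of the early response went both ways. Of 31 further immediate early and AP-1 genes, 26 were compared, 6 were higher in TC71 and 6 in CHLA9. The largest differences among those with at least 10 CPM in a line were in NR4A3, an orphan nuclear receptor (19.7 CPM in CHLA9 and 0.63 in TC71), ZFP36L1, a relative of ZFP36 (158 and 27.0), the zinc finger factor KLF6 (105 and 31.2), BTG2, which slows proliferation (30.9 and 11.3), and the small GTPase RHOB (5.17 and 12.5). The lists of pathways that feed the members are read against the same shares of all genes, 13.9% higher in TC71 and 19.7% in CHLA9. Of 7 NF-kB targets compared, 5 were higher in TC71 and 0 in CHLA9, with a median log2 difference of 1.73. Of 11 genes of the ATF4 response, 6 were higher in TC71 and 0 in CHLA9 (median 1.11). Of 8 genes of ERK feedback, 1 was higher in each line, of 10 heat shock genes 1 was higher in TC71 and 0 in CHLA9, and of 6 p53 targets 2 were higher in TC71 and 0 in CHLA9.

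In single cells the share with a UMI ran from most cells for IER2 to very few for FOSB. At full depth, IER2 had a UMI in 80.3% of CHLA9 cells and 82.8% of TC71 cells, JUN in 60.8% and 52.3%, JUNB in 51.1% and 58.9%, and IER3 in 38.1% and 55.7%. DUSP1 was read in 26.3% and 25.6% of cells, ZFP36 in 8.93% and 6.54%, FOS in 5.13% and 0.81%, ATF3 in 2.39% and 15.8%, EGR1 in 1.35% and 3.01%, and FOSB in 0.29% and 0.35%. JUN was read in fewer cells than its level allows: with its UMIs spread over cells in proportion to depth, 80.5% of CHLA9 cells and 72.5% of TC71 cells would have held one. For EGR1 the spread-out shares were 2.93% and 6.36%, against 1.35% and 3.01% seen. ZFP36 was read in about as many cells as its level gives, 9.06% and 6.68%. The libraries hold no cell type known to lack these genes, so a background share from free RNA could not be measured.

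A few cells carried many UMIs of a member, in some with other members and in some alone. The cell highest for IER3 in CHLA9, a cell scored in S phase with 53830 UMIs, held 88 IER3 UMIs, 14 of JUNB, 10 of IER2 and 2 of JUN. The cell highest for JUN in TC71 held 33 JUN UMIs and at most 1 UMI of each other member. The cell highest for EGR1 in CHLA9 held 15 of the 135 EGR1 UMIs of that line, with 4 of IER2, 3 of JUNB and 1 of FOS, and its TC71 counterpart held 11 of 114, with 10 of IER2 and 6 of JUNB. At least 10 JUN UMIs were found in 92 CHLA9 cells and 25 TC71 cells, at least 10 of IER2 in 49 and 8, of IER3 in 23 and 11, and of JUNB in 7 and 0. The 5% of cells with the most JUN UMIs held 27.4% of all JUN UMIs in CHLA9 and 33.7% in TC71. For IER3 this share was 39.5% and 28.7%, and for IER2 18.2% and 16.2%.

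To set this unevenness beside other genes, every cell was thinned to 10000 UMIs, which left out 14 CHLA9 cells and 59 TC71 cells with fewer. The ratio of variance to mean across cells is 1 for UMIs scattered at random. It was 2.17 for EGR1 in CHLA9 and 2.46 in TC71, 1.60 and 2.04 for JUN, and 1.90 and 1.42 for IER3. These 3 members lay above the 95th percentile of genes with a mean within 1.5 times their own in both lines, at percentiles 99.2 to 99.9. JUNB passed it in CHLA9 only (1.19, where the 95th percentile was 1.14), and stood at 1.13 against 1.14 in TC71. ATF3 passed it in TC71 only (1.17 against 1.10), and in CHLA9 it had 36 cells with a UMI after thinning and a ratio of 1.05. IER2 stood at 1.26 against 1.26 in CHLA9 and at 1.13 against 1.20 in TC71, so this highest member stayed under the limit, at percentiles 94.6 and 88.4. DUSP1 (1.05 and 1.10, percentiles 77.0 and 94.4), ZFP36 (1.01 and 1.08) and FOS (1.08 and 1.00) also stayed under it. The EGR1 ratios rest on 22 CHLA9 and 25 TC71 cells with a UMI after thinning. A single thinned CHLA9 cell held 19 IER3 UMIs, and the IER3 ratio without it was not computed. Whether the differences between the lines exceed those between cultures was not tested, with 1 library each.

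**Figure D2:**
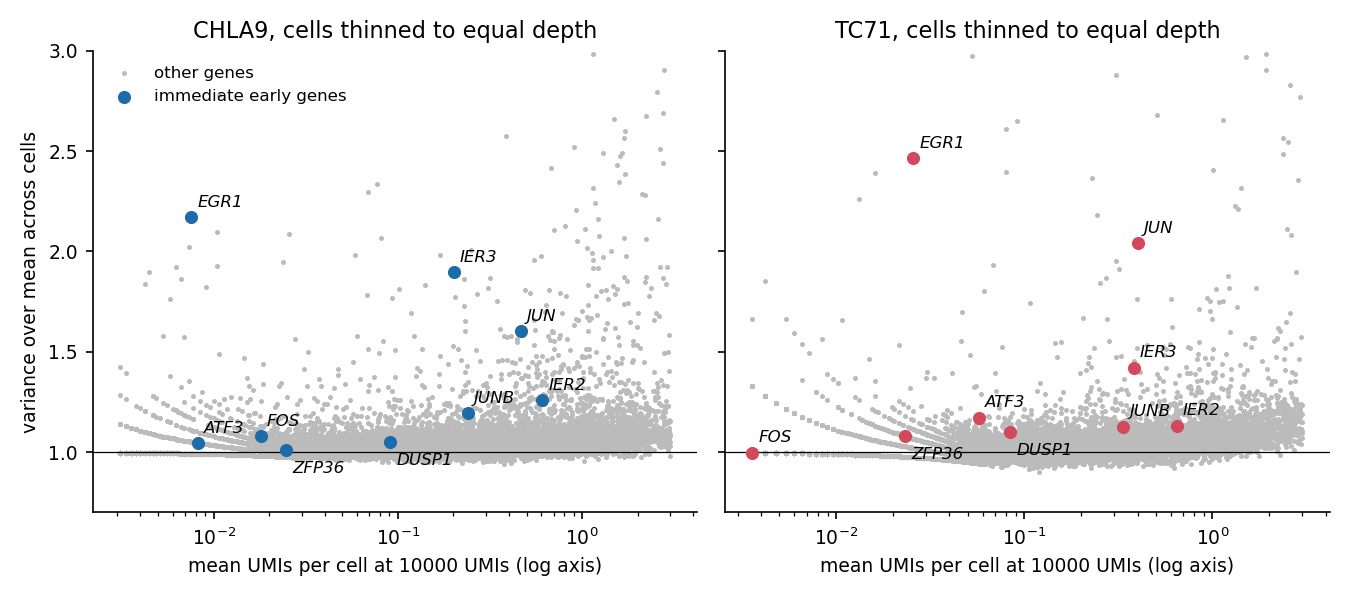
Variance over mean of UMIs across cells thinned to 10000 UMIs, against the mean (log axis), for CHLA9 (left) and TC71 (right). Grey points are other genes, coloured points the members with a mean over 0.003, and genes above a ratio of 3 are not drawn. EGR1, JUN and IER3 stand above genes of like level in both lines, while IER2, DUSP1, ZFP36 and FOS stay under the 95th percentile of such genes in both.

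The number of members found in a cell varied slightly more in CHLA9 than for members read independently, and more so in TC71. At 10000 UMIs a cell held a mean of 1.22 of the 10 members in CHLA9 and 1.42 in TC71. The variance of this number, divided by the value for members read independently of each other, was 1.05 in CHLA9 and 1.21 in TC71. At least 4 members were found in 66 CHLA9 cells (1.46%, where independence gives 1.22%) and in 74 TC71 cells (4.43%, where it gives 2.43%), and no cell of either line held more than 6. None was found in 24.5% of CHLA9 cells and 21.0% of TC71 cells, against 23.6% and 18.2%. Over the 45 pairs, the highest Spearman correlation across cells was 0.041 in CHLA9 (EGR1 with IER2) and 0.11 in TC71 (JUNB with IER3), values that sparse counts hold down and that are no finding by themselves.

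Of the pairs, 20 had an expected number of at least 5 shared cells in both lines, and 9 of these exceeded the expected number in both. How many pairs of other genes of like level do so was not counted, so 9 of 20 is not read as an excess. The 5 with the highest lower ratio of observed to expected cells were JUN with EGR1 (1.46 in CHLA9 and 1.42 in TC71), EGR1 with IER2 (1.52 and 1.42), JUN with ATF3 (1.34 and 1.38), IER3 with DUSP1 (1.26 and 1.18) and JUNB with IER3 (1.11 and 1.26). The EGR1 pairs rest on 9 to 16 cells per line. Counting intervals above 1 were found for 3 pairs in TC71 (JUNB with IER3, JUN with IER3 and JUNB with IER2) and for 0 in CHLA9.

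Cells rich in 1 member were then compared with the rest for every other gene. For each member, the 5% of cells with the highest share of its UMIs were set against the other kept cells of that line; for members read in under 10% of cells, all cells with a UMI were taken. Sets of under 50 cells (FOSB in both lines, FOS in TC71) were not compared. Genes with at least 10 CPM in the line, 8620 or 8621 in CHLA9 and 8152 or 8153 in TC71, were counted where their level was at least 1.5 times that of the other cells. The genes named beside each set, other than members, were chosen after their values were seen.

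The cells highest for IER3 were rich in NF-kB targets in both lines. In 227 CHLA9 cells, NFKBIA, the inhibitor that NF-kB induces against itself, stood at 151 CPM against 58.0 CPM in the other cells, a ratio of 2.60 (2.45 to 2.76). TNFAIP3, a further feedback inhibitor, had a ratio of 1.99 (1.73 to 2.28) and JUNB one of 1.93 (1.72 to 2.15). In all, 0.0812% of genes reached 1.5 in this set, and 2 of 2 NF-kB genes with at least 10 CPM did. In 87 TC71 cells, NFKBIA stood at 353 CPM against 120 CPM, a ratio of 2.93 (2.73 to 3.14), TNFAIP3 at 2.50 (2.07 to 2.99), BIRC3, an inhibitor of apoptosis, at 2.38 (1.79 to 3.11), JUNB at 2.36 and JUN at 2.27. There 0.601% of genes reached 1.5, as did 5 of 5 NF-kB genes and 3 of 3 other members. Split by phase, these same sets gave NFKBIA ratios of at least 1.78 in each of G1, S and G2M cells of CHLA9 and at least 2.65 in those of TC71. Of ATF4 genes with at least 10 CPM, 0 of 4 in CHLA9 and 0 of 8 in TC71 reached 1.5, and DDIT3, under 10 CPM in CHLA9, stood at 1.81 (1.46 to 2.21) there and at 1.12 (0.81 to 1.51) in TC71.

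CDKN1A, a cell cycle inhibitor that p53 and other factors induce, was also higher beside IER3, on few molecules. The IER3 set of CHLA9 held 13 of its 46 UMIs in that line, a ratio of 8.31 (4.02 to 16.2), and the set of TC71 held 37 of 420, a ratio of 2.13 (1.477 to 2.988). MDM2, another p53 target, stood at 0.98 (0.88 to 1.09) and 0.96 (0.80 to 1.15).

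Cells highest for JUNB held more IER3 and NFKBIA in both lines. IER3 had a ratio of 2.91 (2.61 to 3.23) in CHLA9 and 2.94 (2.55 to 3.38) in TC71, and NFKBIA had 1.76 (1.63 to 1.89) and 2.20 (2.02 to 2.39). In CHLA9, 0.0464% of genes reached 1.5, IER3 and NFKBIA among them. In TC71, 0.601% did, with 3 of 3 other members (IER3, JUN at 2.42 and IER2 at 1.68) and 5 of 5 NF-kB genes. Without the cell with 88 IER3 UMIs, IER3 in the CHLA9 set stood at 2.27 (2.02 to 2.56). EGR1, under 10 CPM, rested on single cells here. The CHLA9 set held 27 EGR1 UMIs, a ratio of 5.72 (3.60 to 8.78), of which 1 cell held 15, and without it the ratio was 2.55 (1.28 to 4.64). The TC71 set held 15, a ratio of 3.80 (2.05 to 6.58), of which 1 cell held 11, and without it the ratio was 1.03 (0.28 to 2.72).

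In the cells highest for IER2, JUNB and IER3 were higher in both lines, though unevenly over phases and, for IER3 in TC71, under 1.5 after thinning. No NF-kB gene counted reached 1.5. IER3 had a ratio of 2.23 (1.97 to 2.51) in CHLA9 and 2.08 (1.77 to 2.43) in TC71, and JUNB one of 1.79 in CHLA9 and 1.78 in TC71. Within phases, JUNB ranged from 1.30 in G1 to 2.73 in S cells of CHLA9, and from 1.14 in S to 2.45 in G1 cells of TC71. Sets formed after thinning were not examined for JUNB. NFKBIA stood at 1.21 and 1.45, and 0 of 2 and 0 of 5 NF-kB genes reached 1.5, where 0.139% of all genes did in CHLA9 and 0.454% in TC71. JUN stood at 0.93 (0.83 to 1.04) in CHLA9 and 1.30 (1.07 to 1.56) in TC71. EGR1 stood at 4.94 (3.01 to 7.79, 23 UMIs) in CHLA9 and 8.32 (5.26 to 12.8, 29 UMIs) in TC71. Within phases, EGR1 ranged from 3.04 in S to 6.10 in G1 cells of CHLA9. In TC71 it stood at 14.5 in S and 2.29 in G2M cells, with no value for G1. The IER2 sets were shallower than the other cells, with a median of 28787 against 34986 UMIs in CHLA9 and 28667 against 33546 in TC71, and 52.9% of their cells were in G2M in each line, against 38.5% and 36.7% of the others. With cells thinned to 10000 UMIs before the sets were formed, IER3 beside IER2 stood at 2.05 in CHLA9 and at 1.17 in TC71, under 1.5. Within phases of these same sets, IER3 ranged from 1.42 in G1 to 4.84 in S cells of CHLA9, and from 1.15 in G1 to 2.53 in G2M cells of TC71. The CHLA9 cell with 88 IER3 UMIs was in this set, and without it the ratio was 1.57 (1.36 to 1.81). These single-cell removals were chosen after seeing the data, and counting intervals take the UMIs of 1 cell as independent. Without the cell with 11 EGR1 UMIs, EGR1 in the TC71 set stood at 5.24 (2.97 to 8.79). The CHLA9 set without a cell with 5 EGR1 UMIs gave 3.88 (2.22 to 6.42).

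Cells with an EGR1 UMI held more DUSP6, the phosphatase that ERK induces against itself, in both lines. In 61 CHLA9 cells DUSP6 stood at 49.1 CPM against 17.1 CPM, a ratio of 2.88 (2.39 to 3.44), and in 52 TC71 cells at 30.2 against 14.8 CPM, a ratio of 2.05 (1.51 to 2.72). IER2 had a ratio of 1.57 (1.37 to 1.79) and 1.62 (1.38 to 1.88). EGR2, a relative of EGR1, had 1.72 (1.498 to 1.971) in CHLA9 and 0.96 (0.68 to 1.31) in TC71, and FOS had 3.39 (1.83 to 5.79, 14 UMIs) in CHLA9. NFKBIA was at 0.99 (0.84 to 1.16) in CHLA9 and 1.18 (1.04 to 1.34) in TC71. In these sets 0.29% of genes reached 1.5 in CHLA9 and 1.04% in TC71, and of the ERK feedback genes 1 of 2 and 2 of 3 did. ETV5, an ERK-responsive ETS factor, did not, at 1.15 and 1.00. DUSP6 had the highest ratio of the genes counted in CHLA9, but in TC71 TXNIP (2.68) and FBXO42 (2.07) stood above it. ANXA1 stood at 2.10 in CHLA9, and it also passed 1.5 in the CHLA9 sets for ATF3 (2.43), IER2 (1.70), IER3 (1.54) and FOS (1.52). Among G1 cells of TC71, where 5 had EGR1, the DUSP6 ratio was 0.53. A single cell held 15 of the EGR1 UMIs of CHLA9 and another 11 of those of TC71.

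Cells with ATF3 were richer in several amino acid and unfolded protein stress genes downstream of ATF4, less so among S cells of CHLA9 and, for DDIT3, of TC71. DDIT3 (CHOP) stood at 36.4 against 6.61 CPM in the 108 CHLA9 cells with an ATF3 UMI, a ratio of 5.50 (4.65 to 6.48), and at 57.1 against 14.0 CPM in the 87 highest TC71 cells, a ratio of 4.09 (3.42 to 4.87). ASNS, which makes asparagine, had 2.64 (2.26 to 3.07) in CHLA9 and 1.47 (1.26 to 1.70) in TC71, the cystine carrier SLC7A11 had 4.51 (3.86 to 5.25) and 1.68 (1.35 to 2.07), and DDIT4 had 2.01 (1.57 to 2.54) and 2.31 (1.92 to 2.75). IER3 stood at 2.28 (1.97 to 2.63) in CHLA9, where 1 cell held 88 of its 202 UMIs and the ratio without it was 1.30 (1.07 to 1.57), and at 1.87 (1.60 to 2.18) in TC71. Without the cell with the most SLC7A11 UMIs, SLC7A11 in TC71 stood at 1.44 (1.13 to 1.80). Without the cell of the set highest for each, DDIT3 in TC71 stood at 3.29 (2.70 to 3.98) and DDIT4 at 1.97 (1.62 to 2.38). JUN stood at 1.16 (1.01 to 1.31) in CHLA9 and at 2.65 (2.33 to 3.01) in TC71. Of the ATF4 genes with at least 10 CPM, 2 of 4 reached 1.5 in CHLA9 (ASNS and PSAT1), where 0.325% of all genes did, and 3 of 8 in TC71, where 0.626% did. Of the NF-kB genes, 0 of 2 did in CHLA9 and 1 of 5 in TC71. That gene was NFKBIA, at 1.55 (1.42 to 1.69) in TC71 and 1.30 (1.17 to 1.44) in CHLA9. Of the CHLA9 cells with ATF3, 8.33% were in G1 against 22.8% of the others, and 51.9% in S against 38.0%. Their median depth was 38709 against 34551 UMIs. Among S cells of CHLA9, DDIT3 stood at 2.94, SLC7A11 at 2.05, DDIT4 at 1.39 and ASNS at 1.29. Among S cells of TC71 these 4 genes stood at 1.95, 1.52, 2.66 and 1.32. In G1 and G2M cells of TC71 DDIT3 stood higher, at 6.06 and 4.34, while DDIT4 stood lower than in S cells, at 2.51 and 1.56.

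Around JUN, as around every other member compared in both lines, more genes passed in TC71 than in CHLA9. The JUN sets differed in size, with 87 cells in TC71 and 227 in CHLA9, and the part of counting error in this was not tested. In TC71, the 87 cells highest for JUN had DDIT3 at a ratio of 3.11 (2.55 to 3.78), NFKBIA at 2.52 (2.34 to 2.71), IER3 at 2.25 (1.94 to 2.60), TNFAIP3 at 2.01 (1.64 to 2.44) and ATF3 at 3.39 (2.42 to 4.63), and 0.613% of genes reached 1.5. In CHLA9, 0.0232% did (TXNIP and GDF10). There DDIT3 was at 1.26 (0.99 to 1.59), NFKBIA at 1.27 (1.17 to 1.38) and IER3 at 1.49 (1.30 to 1.69), although the 227 cells held JUN at 244 CPM against 37.4 CPM in the others. RHOB, under 10 CPM in CHLA9, stood at 2.01 (1.58 to 2.53) there and at 2.12 (1.62 to 2.74) in TC71. ATF3 in the CHLA9 set had only 9 UMIs, 4 of them in 1 cell. Without the cell with 32 DDIT3 UMIs, DDIT3 in the TC71 set stood at 2.31 (1.83 to 2.88). No test of this contrast of the lines was possible. With sets formed anew within G1 cells of TC71, the DDIT3 ratio was 0.999 over 13 cells and within S cells 1.11 over 42, while the G1 cells of the set above gave 4.76.

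Around the remaining members, FOS, DUSP1 and ZFP36, few genes reached 1.5, but those of the DUSP1 set of TC71 included NF-kB genes. In cells with FOS in CHLA9, 0.0116% of genes reached 1.5, IER2 was at 1.05 (0.96 to 1.14) and JUN at 1.09 (1.00 to 1.19), while EGR1 stood at 6.31 (4.20 to 9.29) on 37 UMIs. Of these, 1 cell held 15, and without it the ratio was 3.76 (2.25 to 6.02). In the DUSP1 set, 0.0116% of genes reached 1.5 in CHLA9, with NFKBIA at 0.98, and 0.221% in TC71, where NFKBIA was at 1.64 (1.51 to 1.79) and JUN at 1.68 (1.44 to 1.95), or 1.47 (1.25 to 1.72) without 1 cell with 27 JUN UMIs. In cells with ZFP36 the share was 0% in CHLA9 and 0.0491% in TC71, and JUN, JUNB and IER2 lay between 0.92 and 1.23 in both lines, with IER3 at 0.80 (0.71 to 0.90) and 1.03. The median ratio over the heat shock list lay between 0.90 and 1.06 around each of the members compared, but single genes of it went further. In the TC71 set for IER3 the chaperone gene HSPA1B stood at 1.53 (1.16 to 1.97), or 1.47 without 1 cell, and HSPA1A at 1.36 (1.18 to 1.57), and in that for JUNB the co-chaperone gene DNAJB1 stood at 0.71 (0.52 to 0.94).

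**Figure D3:**
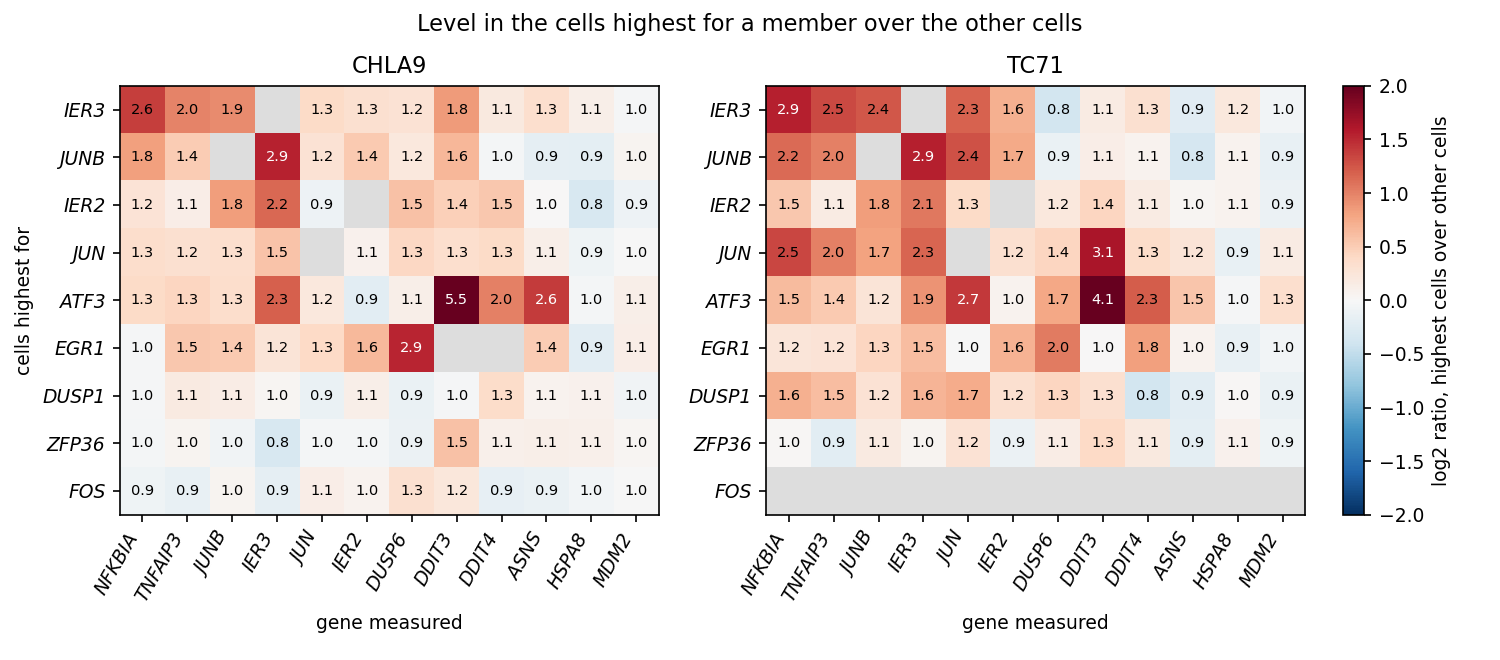
Ratio of the level of the gene in each column in the cells highest for the member in each row to its level in the other kept cells, printed in each square and coloured on a log2 scale, for CHLA9 (left) and TC71 (right). Grey squares hold fewer than 20 UMIs in the set, the member itself, or a set of under 50 cells. The IER3 and JUNB rows are high for NFKBIA, the EGR1 row for DUSP6 and the ATF3 row for DDIT3, and the JUN row is high in TC71.

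The cell cycle moved the members little as a group and some of them in opposite ways. Phases were scored with the members left out, which placed 22.5% of CHLA9 cells in G1, 38.3% in S and 39.2% in G2M, and 14.8%, 47.7% and 37.5% of TC71 cells. CCNB1, the mitotic cyclin, had 528 CPM in G2M, 125 in G1 and 61.0 in S cells of CHLA9, and 390, 241 and 107 CPM in TC71, so G1 and G2M were less well parted in TC71. With all genes kept for scoring, 30.1% of TC71 cells fell in G1, 25.6% in S and 44.3% in G2M, while the CHLA9 shares were 23.1%, 36.3% and 40.5%. The 10 members summed to 170 CPM in G1, 155 in S and 170 in G2M cells of CHLA9, and to 203, 186 and 203 CPM in TC71. The log2 ratio of S over G2M was -0.14 (-0.18 to -0.10) and -0.13 (-0.19 to -0.07), and that of G1 over G2M was 0.00 (-0.05 to 0.04) and 0.00 (-0.08 to 0.09). In TC71 these became -0.07 (-0.14 to -0.01) and -0.15 (-0.21 to -0.08) with all genes kept for scoring.

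IER2 was lower in S cells, with 51.2 CPM (49.47 to 52.95) against 63.0 (61.3 to 64.8) in G2M cells of CHLA9 and 61.6 (58.7 to 64.7) against 67.8 (64.6 to 71.2) in TC71. JUN was lower in S cells of CHLA9, at 39.9 CPM against 52.5 in G2M and 48.8 in G1, and had 42.4, 39.7 and 45.8 CPM in S, G2M and G1 cells of TC71. IER3 had its highest level in S cells of CHLA9, at 24.9 CPM (23.7 to 26.1) against 17.6 (16.7 to 18.6) in G2M and 15.2 (13.9 to 16.7) in G1, and its lowest in S cells of TC71, at 32.4 CPM (30.3 to 34.6) against 43.2 (40.6 to 45.9) and 35.9 (31.7 to 40.5). With all genes kept for scoring, IER3 in TC71 stood at 31.2 CPM in G1, 35.8 in S and 41.5 in G2M cells, so its lowest level moved to G1, and JUN there stood at 38.7, 46.6 and 40.8 CPM in the same order. Without the 1 cell with 88 UMIs, IER3 stood at 23.6 CPM in S cells of CHLA9. DUSP1 was slightly higher in G2M than in S cells of both lines, at 9.59 against 8.34 CPM and 10.5 against 8.61 CPM. EGR1 was highest in G1 in CHLA9 (1.21 CPM, against 0.81 in S and 0.56 in G2M) and in S in TC71 (2.91 CPM, against 0.96 in G1 and 1.17 in G2M), on 135 and 114 UMIs in all. Without the highest cell of each line, EGR1 in S cells stood at 0.58 CPM in CHLA9 and 2.51 in TC71, and with all genes kept for scoring the TC71 levels were 2.86 CPM for S, 2.07 for G1 and 1.41 for G2M cells. FOS in CHLA9 was higher in G1 (2.33 CPM) than in G2M (1.45 CPM).

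**Figure D4:**
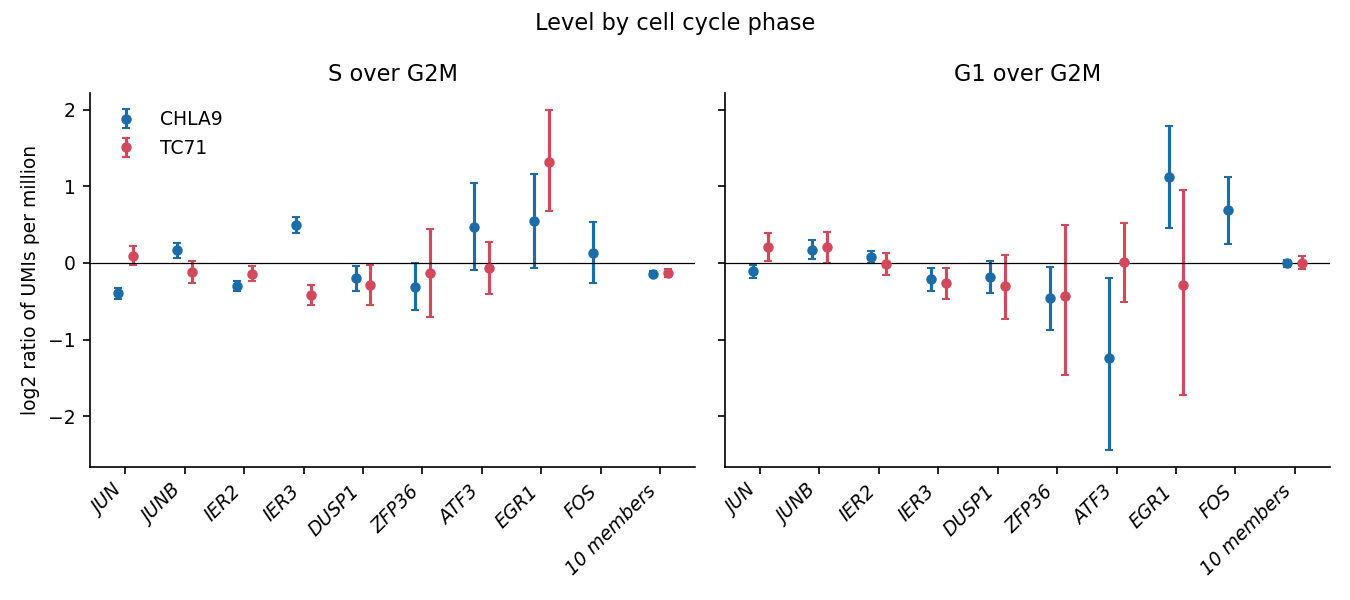
Log2 ratio of CPM in S over G2M cells (left) and in G1 over G2M cells (right) for each member and their sum, with exact conditional 95% intervals, in CHLA9 and TC71. FOSB in both lines and FOS in TC71 are not drawn because they have 14 UMIs or fewer. The sum lies near 0, and IER3 has opposite signs in the 2 lines for S over G2M.

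Mitochondrial percent, often read as a sign of stressed or leaking cells, was set against the members next, and among kept cells their sum moved little with it. Levels were taken as nuclear CPM, with the UMIs of nuclear genes alone as the total, because a larger mitochondrial share lowers every other gene by itself. Over the 4 equal groups of cells by mitochondrial percent, whose medians ran from 5.81% to 9.48% in CHLA9 and from 6.66% to 11.8% in TC71, the members summed to 183, 175, 178 and 175 nuclear CPM in CHLA9 and to 219, 230, 196 and 213 in TC71. The log2 ratio of the highest group over the lowest was -0.06 (-0.11 to -0.01) and -0.04 (-0.12 to 0.04). JUN stood at 51.1, 50.4, 50.5 and 52.1 nuclear CPM in CHLA9. In CHLA9 the interval of this ratio lay below 0 for EGR1, IER2, IER3 and ATF3 and above 0 for FOS (1.23 in the lowest and 1.95 in the highest group), and in TC71 it covered 0 for all 10 members. CCNB1 ran from 385 nuclear CPM in the lowest to 234 in the highest of these groups of CHLA9, so the mix of phases differed between them. By UMIs per cell, the summed members were lower in the deepest than in the shallowest of 4 equal groups of cells, by a log2 ratio of -0.17 in CHLA9 and -0.20 in TC71.

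Barcodes left out by the filters gave a different picture in CHLA9. The members summed to 178 nuclear CPM (176 to 180) in its kept cells, 222 (198 to 247) in 181 barcodes over 15% mitochondrial UMIs, 399 (320 to 492) in 95 barcodes under 2000 genes and 449 (375 to 533) in 277 barcodes under 5000 UMIs. JUN carried most of this, at 51.0, 82.6, 181 and 198 nuclear CPM. The mitochondrial median of these 3 groups was 39.9%, 60.6% and 62.1%. In TC71 the sum stood at 215 in kept cells, 213 in 601 barcodes over 15% mitochondrial UMIs, 251 (217 to 290) in 269 under 2000 genes and 203 (193 to 214) in 5869 under 5000 UMIs, whose mitochondrial median was 3.39%. IER3, not JUN, was higher in the TC71 barcodes left out for mitochondrial UMIs (54.6, 47.7 to 62.2) or genes (88.3, 68.3 to 112) than in kept cells (41.0, 39.3 to 42.8). Whether these barcodes are damaged cells or free RNA was not tested.

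**Figure D5:**
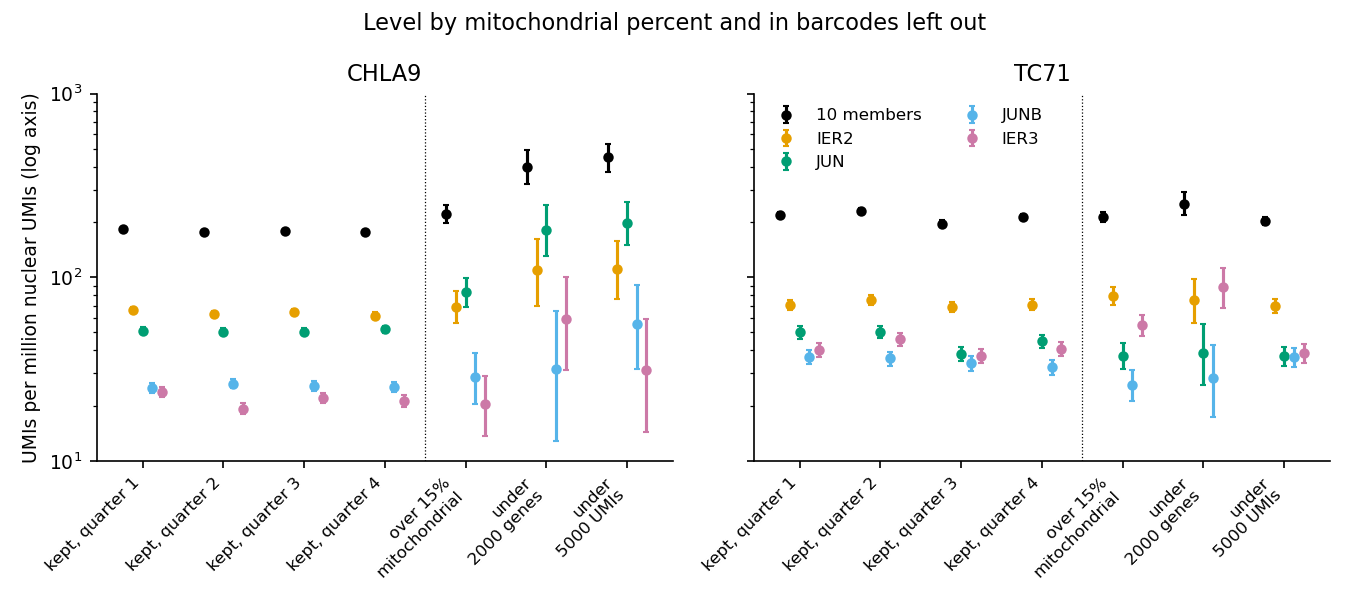
Nuclear CPM of the summed members and of IER2, JUN, JUNB and IER3 (log axis), in the 4 groups of kept cells by mitochondrial percent and in the 3 groups of barcodes left out, with exact 95% Poisson intervals. The sum runs from 175 to 183 in the groups of kept CHLA9 cells and from 196 to 230 in those of TC71. It is higher in the barcodes left out of CHLA9, led by JUN, and in TC71 IER3 is higher in the barcodes with over 15% mitochondrial UMIs or under 2000 genes.

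Few genes went with the members as a group. A member score, the average over the 10 of log-transformed UMIs (1 added, natural log) at 10000 UMIs, was compared across cells with 8958 genes read in at least 5% of thinned cells of both lines. The 10 genes with the highest lower Spearman rho of the 2 lines were ARL6IP1 (0.074 in CHLA9 and 0.071 in TC71), CDC20 (0.068 and 0.085), CCNB1 (0.064 and 0.092), SFPQ (0.062 and 0.063), SINHCAF, DLGAP5, HMMR, MEX3A, CCNB2 and BAZ1A, over 4510 and 1670 cells that share library and depth. CDC20, CCNB1, CCNB2, DLGAP5 and HMMR are expressed towards mitosis. These correlations are weak. NFKBIA, named after its values were seen, ranked 1 of the 8958 in TC71, with a rho of 0.27, and 88 in CHLA9, with 0.043. The score of the NF-kB list had a rho of 0.28 with the member score in TC71 and 0.041 in CHLA9, and those of the ERK feedback, heat shock, ATF4 and p53 lists lay between -0.062 and 0.064 in both lines. The list of other immediate early and AP-1 genes had 0.077 in CHLA9, above the NF-kB list there, and 0.095 in TC71.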

How the data were processed

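Per the labels and the submitters' processing notes, the authors aligned the reads of both 10x Genomics 3′ libraries to hg38 and counted UMIs with Cell Ranger 3.1.0, and deposited raw counts per gene and barcode, with no normalization. Cells were kept with at least 5000 UMIs, 2000 genes and at most 15% mitochondrial UMIs, which left 4524 CHLA9 and 1729 TC71 cells with medians of 34656 and 33370 UMIs. No doublet caller was run. UMIs were summed per line and given as CPM (counts-per-million scale) with exact 95% Poisson intervals, which cover counting error only. For detection, variance and pairs, cells were thinned to 10000 UMIs (seed 1). Phases were scored with Seurat 5.3.0 in R 4.3.3, with the members left out. Other steps used Python 3.11.15 with numpy 2.4.6, scipy 1.17.1 and pandas 2.3.3, and plots matplotlib 3.10.9. With 1 library per line there was no test between lines, and cells were not used as replicates. The statistics were tested on simulated data. Gene coordinates are GRCh38, and promoter windows are from RefSeq (GRCh38.p14).

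The members and the gene lists were chosen with earlier results of these data known. Named genes were the members, the 5 of the 31 other immediate early genes with at least 10 CPM in a line and the largest difference between lines, the 5 pairs with the highest lower ratio, and the 10 genes most like the member score. Genes named beside the cells highest for a member were chosen after their values were seen. Alternatives changed the thinning depth, the mitochondrial limit, the scaling, the weighting of cells, the scoring genes the removal of the deepest cells and, chosen after seeing the data, the removal of the single cell with the most UMIs of a named gene.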

Additional observations from a re-analysis of the deposited data

Results flagged for a closer look

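Some members went opposite ways in the 2 lines under the same contrast, each with a counting interval on its own side of 0. The difference itself was not tested, as each line has 1 library. JUN in G1 over G2M cells had a log2 ratio of -0.11 (-0.19 to -0.02) in CHLA9 and 0.21 (0.02 to 0.39) in TC71. With all genes kept for scoring, the TC71 value was -0.08 (-0.22 to 0.06). IER3 in S over G2M cells had 0.50 (0.39 to 0.60) in CHLA9 and -0.41 (-0.54 to -0.28) in TC71. DUSP1 in the deepest over the shallowest of 4 equal groups of cells had -0.31 (-0.52 to -0.10) in CHLA9 and 0.68 (0.26 to 1.12) in TC71.

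Some barcodes that the cell filters left out held members above the level of the kept cells, in nuclear CPM (nuclear UMIs alone as the total). In CHLA9 barcodes over 15% mitochondrial UMIs, JUN stood at 82.6 and the sum of the 10 members at 222. In CHLA9 barcodes under 2000 genes, JUN stood at 181, IER2 at 109, IER3 at 59.0 and the sum at 399. In CHLA9 barcodes under 5000 UMIs, JUN stood at 198, JUNB at 55.7, IER2 at 111, DUSP1 at 31.3, ZFP36 at 13.9 (3.79 to 35.6) and the sum at 449. In TC71, IER3 stood at 54.6 in barcodes over 15% mitochondrial UMIs and at 88.3 in those under 2000 genes. Others were lower: in TC71 barcodes over 15% mitochondrial UMIs, JUN stood at 37.4 (31.7 to 43.7) against 45.9 in kept cells and JUNB at 26.0 (21.3 to 31.4) against 34.9.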

How the results depend on the processing

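Of 74 alternatives to the main values, 62 kept the value within its limits. Mean members per cell moved with depth, to 0.707 and 1.95 in CHLA9 and 0.849 and 2.31 in TC71 at 5000 and 20000 UMIs, as thinning fixes how many UMIs are read, and the variance ratio of TC71 to 1.12 and 1.35. The log2 ratio of G1 over G2M moved to -0.053 in CHLA9 without the 8% of cells with the most UMIs, to -0.065 there as a mean over cells, and to -0.15 in TC71 with all genes kept for scoring. The ratio of the highest over the lowest group by mitochondrial percent moved to -0.13 in each line with mitochondrial UMIs in the denominator, and to -0.27 in TC71 at a limit of 10%. The cause of these shifts was not tested, except where the denominator sets it.

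Alternatives for the cells highest for a member were chosen after seeing the data, and those within a phase formed the sets anew in that phase. NFKBIA beside IER3 ranged from 1.61 to 3.48 in CHLA9 and from 2.46 to 3.67 in TC71, and DDIT3 beside ATF3 from 2.94 to 7.38 and from 1.54 to 7.49. IER3 beside JUNB ranged from 1.83 (after thinning) to 5.50 (2% of cells) in CHLA9, and IER3 beside IER2 from 1.17 (after thinning) to 2.92 in TC71. Ratios over 1.5 that fell under it included TNFAIP3 beside IER3 in G2M cells of TC71 (1.401), IER2 beside EGR1 there (1.25), JUNB beside IER3 in G1 cells of CHLA9 (1.46) and IER3 beside IER2 in G1 cells of CHLA9 (1.41) and TC71 (1.33). In CHLA9 DDIT3 beside JUN fell under 1 without the deepest 8% of cells (0.926), in S cells (0.960) and after thinning (0.948), and NFKBIA beside JUN in G1 cells (0.940) and after thinning (0.987). In G1 cells of TC71, DDIT3 beside JUN stood at 0.999 and DUSP6 beside EGR1 at 0.535. Without the cell of the set with the most UMIs of the companion, ATF3 beside JUN stood at 0.916 and IER3 beside DUSP1 at 0.968 in CHLA9. No paired analysis was possible because CHLA9 and TC71 gave a single library apiece. Members under about 2 CPM rest on few UMIs, so their splits are at the limit of depth, and doublets were not called.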
